A study of Mus musculus with 6 samples.

Results

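Heat shock proteins and chaperones were examined in mIMCD3 cells, a mouse epithelial line of the inner medullary collecting duct, after aldosterone or vehicle. The members were all probe sets with a single annotated symbol among the HSP70 genes (Hspa, without Hspa5), the small heat shock proteins (Hspb), Hspd1, Hspe1 and Hsph1, the J-proteins (Dnaja, Dnajb, Dnajc), the numbered Cct subunits and the numbered Bag genes. The rule found 56 of the 8251 genes that were the single symbol of a probe set, measured by 83 of 12422 probe sets on all 6 arrays. It used symbols and no measured value. Hspa5, with 1 probe set, and 2 probe sets annotated to several symbols were left out. The name cytosolic covers most of them but not all. By textbook location, 60 probe sets of 40 genes belonged to the cytosol and nucleus, 7 probe sets of 6 genes to mitochondria, 10 probe sets of 5 genes to the endoplasmic reticulum and 6 probe sets of 5 genes to other places such as vesicles and cilia. The prefixes also took in Hspbp1, a nucleotide exchange factor of HSP70 rather than a heat shock protein.

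RNA was measured on single-colour oligonucleotide arrays after 1 h with vehicle or with aldosterone, the steroid hormone by which the distal nephron is made to retain sodium. Each of 3 replications of the experiment gave 1 vehicle and 1 aldosterone array, so each group held 3 arrays. All arrays carried RNA of this 1 line, and the hormone dose is not given in the sources used here. The labels do not say how the cultures of the replications were set up, so the p-values speak of the spread among these arrays, which may be technical.

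Chaperones keep other proteins folded. HSP70 proteins bind exposed hydrophobic stretches of unfolded proteins in cycles of ATP binding and hydrolysis, J-proteins bring them clients and start hydrolysis, and HSP110, BAG proteins and Hspbp1 release the nucleotide, while the ring-shaped chaperonins enclose a client to let it fold. Heat shock factor 1 raises many of these genes when unfolded proteins build up, by binding inverted repeats of the unit nGAAn. Cytosolic HSP70 and HSP90 also hold the mineralocorticoid and glucocorticoid receptors ready for hormone, and the cells of the renal medulla are known for high chaperone content in their salty surroundings.

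The start regions of the members were read first for these letters, because the heat shock unit is what many of the genes have in common in textbooks. RefSeq windows of 300 bases on GRCm38.p6, from 250 before to 50 after each annotated start, were found for 49 of the 56 genes, as 63 windows. Cct4, Dnajc11, Dnajc2, Dnajc5, Hspa8, Hspa9 and Hspb2 were not matched. A pair of inverted units, GAANNTTC or TTCNNGAA, each of which reads the same on both strands, stood in 17 of the 63 member windows (27.0%) and in 4946 of all 32851 windows (15.1%). It was found in 15 of the 49 genes (30.6%, against 17.0% of all genes), namely Bag3, Cct2, Cct5, Cct6a, Dnaja1, Dnajb4, Dnajb6, Dnajc10, Hspa1a, Hspa1b, Hspb1, Hspb8, Hspd1, Hspe1 and Hsph1. A run of 3 alternating units, GAANNTTCNNGAA or TTCNNGAANNTTC, which contains the pairs, was in 6 member windows (9.52%) of 4 genes, Dnajb6, Hspd1, Hspe1 and Hsph1, and in 198 of all windows (0.603%). By gene, these shares were 8.16% of the matched members and 0.662% of all genes. The 6 windows are not 6 separate sites, because Hspd1 and Hspe1 share letters. The windows of Dnajb6, and those of Hsph1, held their matches in the same spacing, so they may also repeat the same letters. The letters of a full glucocorticoid response element, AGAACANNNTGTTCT, to which the mineralocorticoid receptor also binds, were in 0 of the 63 member windows and in 3 of all windows, searched on both strands. These are matches of letters, not measured binding sites.

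The 150 bases before the start of 4 genes show the forms that the heat shock units took, with the matched letters in capitals. They run 5′ to 3′ on the strand of the gene and lie at chr17:34972157-34972306 (minus strand) for Hspa1a, chr17:34959239-34959388 (minus strand) for Hspa1b, chr1:55087933-55088082 (minus strand) for Hspd1 and chr5:29735748-29735897 (plus strand) for Dnajb6.
Hspa1a: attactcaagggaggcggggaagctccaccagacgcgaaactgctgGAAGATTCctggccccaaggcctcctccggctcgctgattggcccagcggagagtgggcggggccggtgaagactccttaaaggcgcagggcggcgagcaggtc
Hspa1b: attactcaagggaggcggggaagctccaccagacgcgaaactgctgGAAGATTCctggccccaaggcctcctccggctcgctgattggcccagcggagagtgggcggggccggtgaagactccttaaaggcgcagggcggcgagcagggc
Hspd1: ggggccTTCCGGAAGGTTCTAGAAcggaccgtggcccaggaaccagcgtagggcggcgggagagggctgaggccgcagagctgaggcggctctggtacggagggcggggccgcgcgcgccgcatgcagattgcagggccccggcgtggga
Dnajb6: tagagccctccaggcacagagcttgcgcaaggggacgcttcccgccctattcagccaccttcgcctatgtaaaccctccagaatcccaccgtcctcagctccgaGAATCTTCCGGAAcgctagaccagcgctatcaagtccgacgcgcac
Hspa1a and Hspa1b, the neighbouring genes of the stress-inducible HSP70, had 149 of these 150 bases in common and 1 pair of units each, from base -104 to -97. Whether the probe sets of these paralogs also detect each other's transcripts was not tested, so their values are uncertain as measures of 1 gene. In 1 of the 2 windows of Hspd1, the one shown, overlapping runs of 3 units formed a stretch of 18 bases from -144 to -127. Hspe1, the co-chaperonin gene, starts 216 bases away on the plus strand, and the windows of Hspd1 and Hspe1 overlap by 285 bases, so the same letters lie in both. Dnajb6 held 13 matched bases from -46 to -34 of the start shown, and the run of 3 units in the window of its other annotated start lay from -127 to -115.

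**Figure D1:**
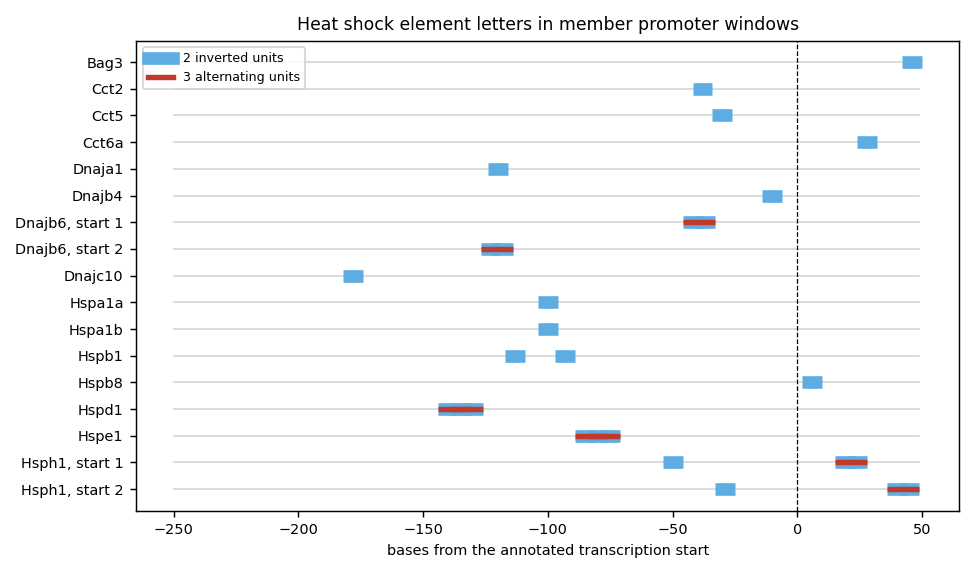
Positions of inverted heat shock units in the start regions of the 15 member genes that held them, 1 grey line per window, with distance from the annotated start in bases on the horizontal axis. Blue blocks are pairs of units and red bars are runs of 3 units, which only Dnajb6, Hspd1, Hspe1 and Hsph1 have.

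The intensities compared here were scaled so that the arrays shared a trimmed mean. The aldosterone array of replication 3 had been deposited on another scale and was multiplied by 24.2, against 0.838 to 0.840 for the other 5, which makes its low values coarse. The scaled medians of the arrays lay between 747 and 843. Differences are on the scale of log2(intensity + 53.0), which understates changes of dim probe sets, and are given as aldosterone minus vehicle with the standard error of limma's fit on treatment. Probe sets below the 40th percentile of mean log2 intensity were not tested. This left 7453 probe sets, among them 69 members of 50 genes, and 14 member probe sets were too dim. The intensities of those 14 ranged from 13.9 to 716. For 6 genes, Hspa1l, Hspb1, Dnajb3, Dnajb5, Dnajb8 and Dnajc11, no probe set was tested. Of the collecting duct and epithelial markers, Krt8, Krt18, Krt19, Cdh1, Epcam, Cldn4 and Cldn7 were bright enough to be tested, while Aqp2, Aqp4 and Avpr2, which define the principal cell, were too dim.

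No chaperone transcript passed the threshold after 1 h of aldosterone. In limma's fit, 0 of the 69 member probe sets had an adjusted p under 0.05, as did 0 of all 7453 (0% of the background), and the smallest adjusted p of a member was 0.9995. An unadjusted p under 0.05 was reached by 0 members and by 72 of all probe sets (0.966%). With the replicate block, which sets the arrays of a replication against each other, limma called 0 members again (smallest adjusted p 0.998), and 1 of 69 (1.45%) had an unadjusted p under 0.05, against 250 of all (3.35%). By sign, 35 members were higher and 34 lower, and 23 were higher and 46 lower without the vehicle array of replication 2. The median difference was 0.005 over the members and -0.0003 over all tested probe sets, and the members ranged from -0.61 to 0.34. Scaling the arrays to a common median kept the sign of every role group's median but moved the splits above and below 0 to 7 and 2 for class B J-proteins, 12 and 4 for class C, 6 and 3 for BAG, 5 and 6 for the Cct subunits and 4 and 9 for HSP70 and HSP110, while all tested probe sets moved to 4308 above and 3145 below.

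The precision of the differences is given by their 95% intervals, first for the fit on treatment alone. Each interval is for its own probe set and is not adjusted for the number tested. A change missed at the adjusted threshold could therefore be larger. For 64 of the 69 member probe sets (92.8%) the whole interval lay within 2-fold in either direction, and for 43 (62.3%) within 1.5-fold. Over all tested probe sets these shares were 87.1% and 49.4%. With the replicate block, the intervals of 66 members (95.7%) lay within 2-fold and those of 57 (82.6%) within 1.5-fold. The block shares over all tested probe sets were 92.1% and 65.7%. Of the 12 probe sets (0.161%) that moved at least 1.5-fold one way in all 3 replications, 0 were members. The median standard error of the members was 0.188, and 0.131 with the replicate block.

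**Figure D2:**
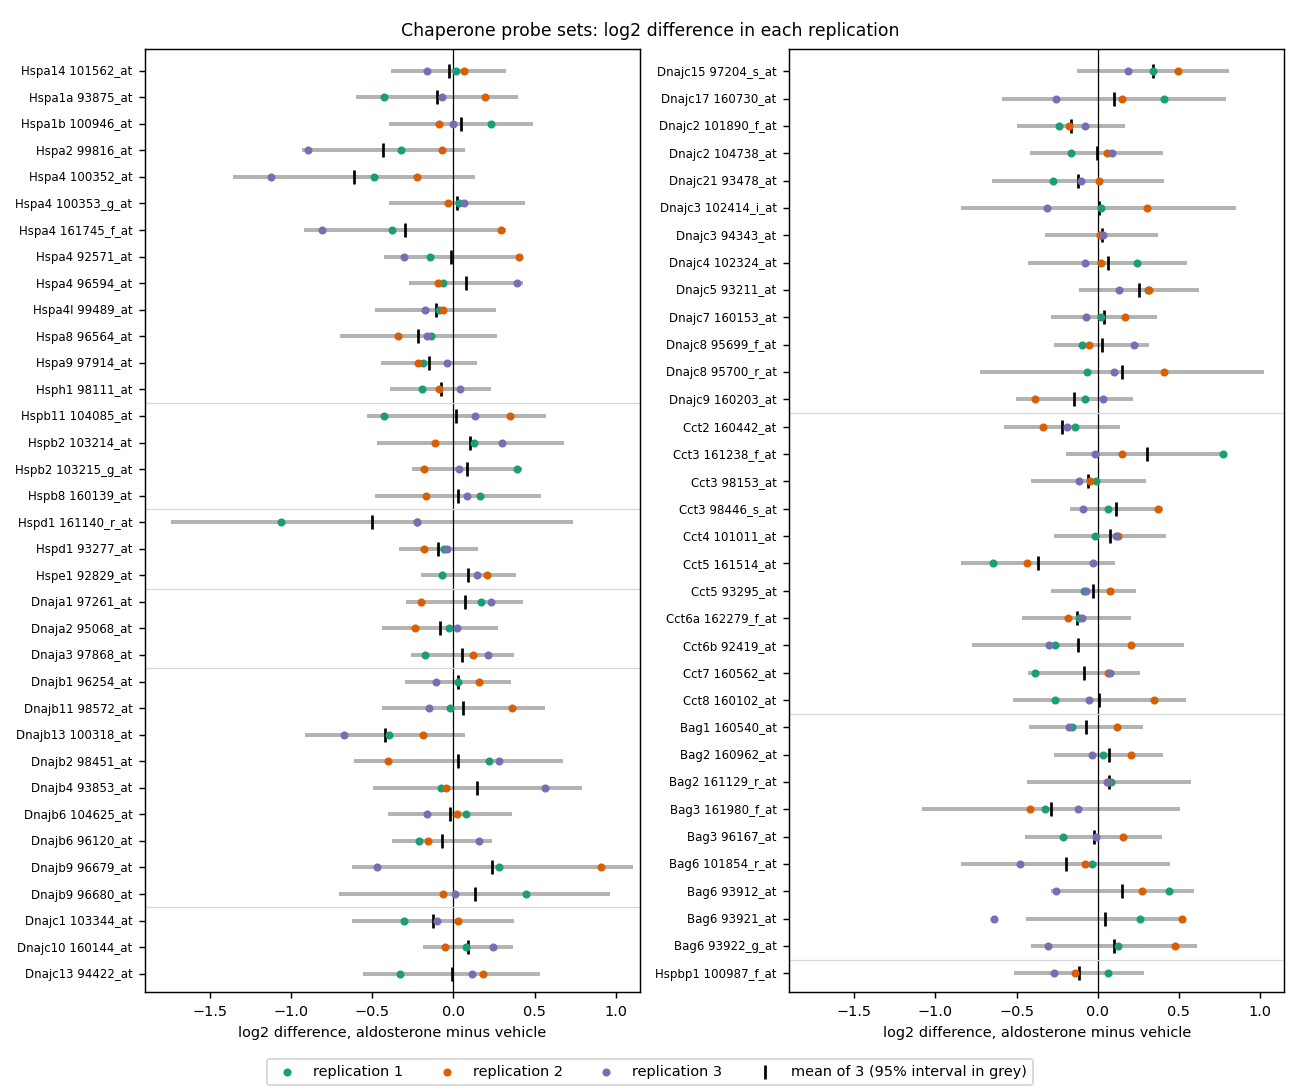
Log2 difference, aldosterone minus vehicle, of each of the 69 tested member probe sets, grouped by role: coloured points are the 3 replications, black ticks the mean and grey bars the 95% interval of limma's fit. The ticks lie between -0.61 and 0.34, and all 3 points lie left of 0 for 15 probe sets and right of 0 for 4.

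Beneath the threshold, 15 of the 69 member probe sets (21.7%), of 14 genes, were lower with aldosterone in all 3 replications, where 860 of all tested probe sets (11.5%) were. Their differences ran from -0.61 to -0.06 with a median of -0.22. Higher in all 3 replications were 4 members (5.80%), from 0.02 to 0.34, against 784 of all (10.5%). These are counts of direction, not calls, and the difference between the shares was not tested. The HSP70 group gave 5 of the 15 (of 13 tested) and the cytosolic chaperonin 4 (of 11 tested). With the arrays scaled to a common median, the count fell to 10 of 69 (14.5%), against 7.63% of all.

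The HSP70 and HSP110 group, which holds and refolds unfolded clients, had 13 tested probe sets of 9 genes, with differences above 0 in 3 and below 0 in 10 (median difference -0.10). Hspa8, the constitutive cytosolic HSP70 that also serves in uncoating clathrin vesicles, had intensities of 25422, 17353 and 23860 with vehicle in replications 1 to 3 and 23053, 13683 and 21264 with aldosterone. Each aldosterone array was below the vehicle array of its own replication, but the ranges of the groups overlapped because replication 2 was low under both treatments. The means were 22212 ± 4280 and 19334 ± 4975 (SD, n = 3 each), a difference of -0.22 ± 0.215 (SE). Hspa8 was the 1 member with an unadjusted p under 0.05 in limma's fit with the replicate block, where its standard error was 0.076 and its adjusted p 0.998.

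Hspa2, an HSP70 best known from male germ cells, had 1462, 1222 and 1487 with vehicle and 1157, 1160 and 774 with aldosterone. All 3 aldosterone values lay below all 3 vehicle values, and the array of replication 3 was the lowest. The means were 1390 ± 147 and 1030 ± 222 (SD, n = 3 each), with a difference of -0.43 ± 0.224 (SE; limma's adjusted p 0.9995). Its difference was -0.25 without the aldosterone array of replication 3, the array that had been rescaled.

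Hspa4, an HSP110 relative that exchanges the nucleotide of HSP70, was the gene whose probe sets disagreed. Its dimmest probe set gave 649, 664 and 606 with vehicle and 447, 561 and 249 with aldosterone, a difference of -0.61 ± 0.331 (SE). The other 4 gave -0.30, -0.01, 0.02 and 0.08, and the groups overlapped in each of them. The brightest gave 8566, 8180 and 6068 with vehicle and 8196, 7665 and 7973 with aldosterone. The low value again came mainly from 1 array, as the difference of the dimmest probe set was -0.32 without the aldosterone array of replication 3. Among the 13 genes with several tested probe sets, those of Hspa4, Cct3 and Bag6 had differences of opposite sign.

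Hspa1a and Hspa1b are the classical stress-inducible HSP70 genes. The Hspa1a probe set gave 1557, 1010 and 1474 with vehicle and 1145, 1162 and 1400 with aldosterone, a difference of -0.10 ± 0.222 (SE). The Hspa1b probe set gave 3817, 3282 and 2940 against 4499, 3085 and 2932, a difference of 0.05 ± 0.198 (SE). The groups overlapped for both genes, and the 95% interval of Hspa1b reached from 0.759-fold to 1.41-fold. Hspa9, the HSP70 of the mitochondrial matrix, had 9439, 11044 and 10070 with vehicle and 8275, 9485 and 9791 with aldosterone. It was lower in each replication, by -0.15 with a standard error of 0.131, and its groups overlapped. The difference was -0.08 without the aldosterone array of replication 1 and -0.09 without the vehicle array of replication 2. Hsph1, the stress-inducible HSP110, had a difference of -0.08 (standard error 0.138), Hspa4l, its relative of the same family, -0.11 (0.166), and Hspa14, a ribosome-associated HSP70, -0.03 (0.157).

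The small heat shock proteins, which hold unfolded clients without ATP, had 4 tested probe sets, all with differences above 0, of which the largest was 0.105. The brighter probe set of Hspb2, a muscle-enriched member, gave 4179, 5403 and 4982 with vehicle and 5510, 4762 and 5096 with aldosterone, with a difference of 0.08 ± 0.150 (SE). The vehicle and aldosterone values overlapped. Hspb8, a partner of Bag3 in clearing aggregates, had 0.03, and Hspb11, which is a ciliary transport protein despite its symbol, 0.02. Hspb1, the most studied small heat shock protein, was too dim to be tested, with 122, 166 and 102 with vehicle and 22.8, 176 and 24.2 with aldosterone.

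The mitochondrial chaperonin, in which Hspd1 forms the folding chamber and Hspe1 its lid, had 3 tested probe sets of unequal precision. The regular probe set of Hspd1 gave 23337, 22518 and 22402 with vehicle and 22399, 19855 and 21753 with aldosterone. The highest aldosterone value was just below the lowest vehicle value. The difference was -0.09 ± 0.108 (SE), and its 95% interval ran from 0.792-fold to 1.11-fold. Hspe1 had 10223, 8619 and 8329 with vehicle and 9720, 9938 and 9203 with aldosterone, a difference of 0.09 ± 0.131 (SE). Hspd1 and Hspe1, whose start regions overlap, thus had fitted differences of opposite sign. Both were smaller than their standard errors in the fit on treatment alone. When arrays were compared within replications, these errors shrank to 0.0719 (Hspd1) and 0.0907 (Hspe1), against differences of -0.0942 and 0.0917. Limma's unadjusted p was then 0.223 and 0.338, so neither sign was established. The other probe set of Hspd1 gave 537, 1277 and 429 against 230, 1086 and 360, and its difference of -0.50 had a standard error of 0.551.

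**Figure D3:**
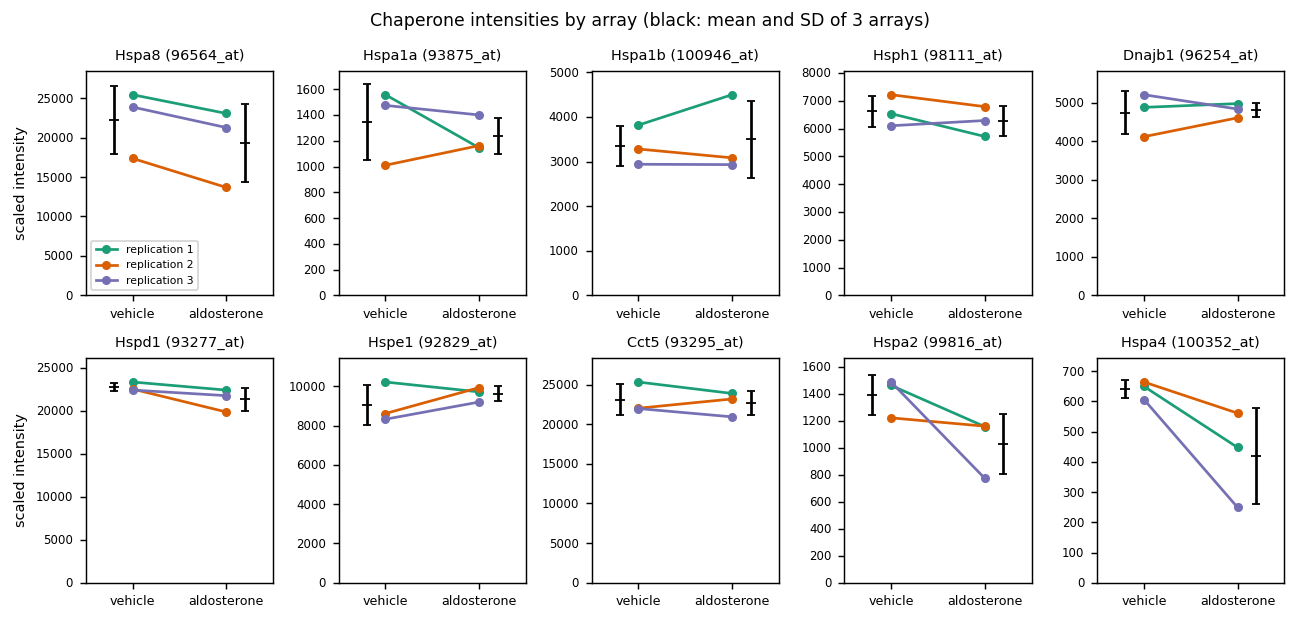
Scaled intensity (linear axis from 0) of 10 member probe sets on every array, with the vehicle and aldosterone arrays of a replication joined by a line and the mean and SD of each group in black (n = 3). Replication 2 is low under both treatments for Hspa8, and the aldosterone array of replication 3 is the lowest for Hspa2 and for the dimmest Hspa4 probe set.

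The J-proteins of class A, general partners of HSP70, gave 3 tested probe sets with log2 differences of 0.07 for Dnaja1, -0.08 for Dnaja2 and 0.05 for the mitochondrial Dnaja3. Dnaja3 had 5966, 5958 and 5298 with vehicle and 5286, 6490 and 6145 with aldosterone, which overlapped. Dnaja1 had 5174, 5364 and 5676 with vehicle and 5835, 4673 and 6675 with aldosterone, so that the aldosterone values surrounded the vehicle values. Class B had 9 tested probe sets of 7 genes, 6 above and 3 below 0 (median difference 0.03). Dnajb1, the stress-inducible HSP40, gave 4887, 4125 and 5215 with vehicle and 4984, 4615 and 4842 with aldosterone, a difference of 0.03 ± 0.145 (SE). Its aldosterone values lay inside the range of the vehicle values. Dnajb6, which suppresses aggregation and has the letters of 3 heat shock units before its start, had 11387, 9650 and 9409 against 9824, 8635 and 10519 in the brighter of its probe sets. The groups overlapped, and the difference was -0.07 ± 0.138 (SE).

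Dnajb13, a J-protein of the axoneme of sperm and motile cilia, had the lowest difference of class B. Its intensities were 1351, 1241 and 1195 with vehicle and 1015, 1082 and 728 with aldosterone, and the groups did not overlap. The difference was -0.42 ± 0.219 (SE; limma's adjusted p 0.9995), and -0.25 without the aldosterone array of replication 3.

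Class C, whose members tie HSP70 to particular sites, had 16 tested probe sets of 13 genes, 10 above and 6 below 0 (median difference 0.02). It held 3 of the 4 members that were higher in all 3 replications, Dnajc15, Dnajc5 and 1 probe set of Dnajc3, a J-protein of the endoplasmic reticulum. Dnajc15, a J-protein of the mitochondrial inner membrane, had 865, 865 and 829 with vehicle and 1107, 1239 and 950 with aldosterone. The groups did not overlap, and the difference of 0.34 had a standard error of 0.208 (limma's adjusted p 0.9995). Dnajc5, the cysteine string protein of secretory vesicles, had 2237, 2301 and 2870 with vehicle and 2789, 2882 and 3152 with aldosterone. Its groups overlapped by the vehicle array of replication 3, and the difference was 0.25 ± 0.164 (SE). Dnajc2, which works at the ribosome, was lower in all 3 replications in 1 probe set, by -0.16 with a standard error of 0.147, and its other probe set had -0.01.

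The cytosolic chaperonin TRiC, a double ring of Cct subunits that folds actin and tubulin, had 11 tested probe sets of the 8 member genes, 4 above and 7 below 0 (median difference -0.06). Cct2 gave 3229, 3557 and 2840 with vehicle and 2923, 2805 and 2485 with aldosterone. It was lower in each replication while the groups overlapped, and the difference was -0.22 ± 0.159 (SE), or -0.15 without the vehicle array of replication 2. The dimmer probe set of Cct5 gave 1665, 2014 and 1548 with vehicle and 1045, 1477 and 1516 with aldosterone, without overlap and with a difference of -0.37 ± 0.210 (SE). Without the aldosterone array of replication 1 that difference was -0.20. The brighter probe set of Cct5 gave 25325, 22018 and 21979 against 23885, 23185 and 20933, which overlapped, and -0.03 with a standard error of 0.117.

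Cct3 had 3 tested probe sets, with differences of 0.30, 0.11 and -0.06. The first of these gave 1959, 3392 and 2841 with vehicle and 3381, 3772 and 2804 with aldosterone, so its difference, with a standard error of 0.220, came mostly from replication 1. It was 0.08 without the vehicle array of replication 1 and 0.47 without that of replication 2. Cct4 had 0.07, Cct6a -0.13, Cct6b -0.12, Cct7 -0.08 and Cct8 0.01. The subunit gene Tcp1, which the symbols of the rule do not cover, had -0.10 ± 0.254 (SE). The subunits act in 1 complex, and their probe sets did not share a sign.

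The BAG proteins, which release nucleotide from HSP70 and steer its clients, had 9 tested probe sets of 4 genes, 5 above and 4 below 0 (median difference 0.05). Bag3, which directs clients to autophagy, had -0.02 in 1 probe set, and in the other 1281, 646 and 675 with vehicle and 1012, 470 and 616 with aldosterone. The latter was lower in each replication by -0.29, with a standard error of 0.355, and the groups overlapped. Bag2, an inhibitor of client ubiquitination, had 0.07 in both tested probe sets, and Bag1 had -0.07. Bag6, which guards membrane proteins on their way to insertion, ranged from -0.20 to 0.15 over its 4 probe sets. Hspbp1 had 2441, 2912 and 2392 with vehicle and 2547, 2639 and 1978 with aldosterone, a difference of -0.12 ± 0.177 (SE) with overlapping groups.

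The genes with a pair of heat shock units in their windows were set beside those without. Of 18 tested probe sets of 14 genes with the pair, 6 lay above and 12 below 0 (median difference -0.05), and 6 were lower in all 3 replications. Of 43 probe sets of 30 genes without it, 25 lay above and 18 below 0 (median difference 0.02), and 6 were lower in all 3 replications. No probe set of either kind was called, and the difference between the kinds was not tested. Cct4, Dnajc2, Dnajc5, Hspa8, Hspa9 and Hspb2 are in neither set, as no window was matched. Of these, Hspa8, Hspa9 and 1 probe set of Dnajc2 were lower in all 3 replications, and Dnajc5 was higher. Hspa1a and Hspa1b, and Hspd1 and Hspe1, share letters but were counted as separate genes.

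Other genes of the same machinery were taken from a list of 35, covering HSP90 and its co-chaperones, heat shock factors, prefoldin and endoplasmic reticulum chaperones. Of these, 27 were present on the array as the single symbol of a probe set. No heat shock factor was tested, as Hsf1 was absent and Hsf2 and Hsf4 were too dim. Hsp90ab1, Ptges3, Ahsa1 and Trap1 were also absent. The genes tested were 24, by 28 probe sets. Of the 28, 0 passed limma's threshold for aldosterone and 0 had an unadjusted p under 0.05, with 8 above and 20 below 0 and a median difference of -0.007. Hsbp1, a binding protein of heat shock factor 1, had the smallest unadjusted p of the list, with a difference of -0.27 ± 0.172 (SE). Next came St13, the cochaperone that stabilises HSP70 bound to clients, with 0.23 (0.164) in 1 probe set and -0.004 in the other, then Fkbp4, an immunophilin partner of steroid receptors, with 0.15 (0.136) in a probe set with the suffix _r_at, which on this array design marks relaxed selection rules, and -0.002 in the other, and Sugt1, an HSP90 co-chaperone, with -0.40 (0.375) in an _r_at probe set and 0.01 in the other. Hsp90b1, the HSP90 of the endoplasmic reticulum, had -0.08, and Hspa5, its HSP70, had -0.001. Hsp90aa1, a cytosolic HSP90, had -0.004 ± 0.136 (SE) in its tested probe set.

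Between the replications of the experiment some member probe sets were called, that of Hspa8 and 1 of Dnajb9 among them, though not under every processing choice. An F test in limma with treatment as a term called 6 of the 69 member probe sets (8.70%) at an adjusted p under 0.05, beside 583 of all tested probe sets (7.82%), so the members' share was close to the background. They belonged to Dnajc8, Hspa8, Bag2, Dnajb9, Hspd1 and Bag6. The median range between the replication means was 0.32 over the members and 0.37 over all. The highest replication was the first for 23 members, the second for 25 and the third for 21. Over all 7453 tested probe sets these counts were 2280, 2474 and 2699, and the difference between the splits was not tested.

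Hspa8 was lowest in replication 2 under both treatments, with replication means that spanned 0.65 on the log2 scale, or 1.57-fold (limma's adjusted p 0.00908). Dnajb9, an endoplasmic reticulum J-protein that is a target of the unfolded protein response, was highest in replication 3. One of its probe sets gave 1157, 990 and 2286 with vehicle and 1598, 944 and 2297 with aldosterone, a range of 1.20 or 2.30-fold (limma's adjusted p 0.0265). The other gave 445, 231 and 699 against 552, 479 and 491, where only the vehicle arrays had replication 3 as the highest, and was not called (limma's adjusted p 0.460). Hspa5, a target of the same response, was instead highest in replication 1, with a range of 0.49 (limma's adjusted p 0.0232). Of the other genes of the machinery, Sugt1 was called in a probe set with the suffix _r_at, highest in replication 3 with a range of 1.08 (limma's adjusted p 0.0155), and not in its other probe set, with a range of 0.18 (0.528), and Sqstm1 (0.0692) and Vbp1 (0.107) came next without being called.

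The other 4 called member probe sets also carried the suffix _r_at. Dnajc8, a J-protein of the spliceosome, gave 6079, 3249 and 9385 with vehicle and 5799, 4330 and 10069 with aldosterone in that probe set. Both treatments were highest in replication 3 and lowest in replication 2, a range of 1.36 or 2.57-fold (limma's adjusted p 0.00227). The other Dnajc8 probe set gave 15237, 15269 and 15694 against 14268, 14684 and 18303, a range of 0.20 (limma's adjusted p 0.359).

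Hspd1, Bag2 and Bag6 were highest in replication 2 in their _r_at probe sets. Their ranges were 1.59, 0.64 and 0.88, with adjusted p of 0.0425, 0.00972 and 0.0441 in limma. The other probe set of Hspd1 had a range of 0.11 (limma's adjusted p 0.640), that of Bag2 0.32 (0.153), and the other 3 of Bag6 were not called. In Bag6 the _r_at probe set gave 2169, 3053 and 1881 with vehicle and 2114, 2882 and 1337 with aldosterone, highest in replication 2 under both. In Bag2 the _r_at probe set gave 8058, 12481 and 8049 with vehicle and 8531, 13065 and 8360 with aldosterone, and the other gave 8824, 10357 and 9429 against 9023, 11965 and 9186. Replication 2 was the highest in both, by a smaller margin in the second.

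Thus 4 of the 4 tested _r_at member probe sets were called between replications, and 2 of the other 65 (3.08%). Over the whole array, 41 of 365 tested _r_at probe sets (11.2%) and 542 of 7088 others (7.65%) were called. Replication 2 was the highest in 192 of the 365 (52.6%) and in 2282 of the 7088 (32.2%). The part of probe design in the differences between replications of Hspd1, Bag2, Bag6 and Dnajc8 was not tested. Just outside the threshold was Cct4 (limma's adjusted p 0.0574), with 18683, 14275 and 18714 with vehicle and 18495, 15551 and 20244 with aldosterone. Cct8 (0.0686) gave 5400, 3050 and 5527 against 4490, 3898 and 5318. Both subunits were lowest in replication 2 under both treatments, as was Hspa8. Dnajb4 (0.0738) gave 2899, 1585 and 1823 against 2744, 1535 and 2717, and Dnajc17 (0.0845) gave 1162, 989 and 2164 against 1561, 1102 and 1801. Dnajb4 and Dnajc17 were also lowest in replication 2.

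Other transcripts also moved with the replications. The summed intensity of 15 immediate early genes, with the brightest probe set of each whether tested or not, was 108469, 43539 and 35896 with vehicle and 95853, 50981 and 36250 with aldosterone, highest in replication 1 under both treatments, and 12 of the 15 tested probe sets of these genes were called, each highest in replication 1. Among the members, Hspa8 was also highest in replication 1, while the other 5 called probe sets were highest in replication 2 or 3. The collecting duct and epithelial markers, summed in the same way over 10 genes, gave 70321, 71849 and 51535 with vehicle and 68997, 68784 and 47310 with aldosterone, lowest in replication 3 under both. Among them the tight junction genes Cldn4 (4.81-fold, limma's adjusted p 0.000381) and Cldn7 (3.09-fold, 0.000940) were called between replications, both lowest in replication 3. Of leukocyte markers, Cd14 and Cd68 were tested and Ptprc, Lyz2 and Adgre1 were too dim. The sum over these 5 genes ranged from 5505 to 7944 with vehicle and from 5227 to 6433 with aldosterone. Most of it came from Cd14, with means of 5907 and 5199. Also tested were Col1a1, Col1a2 and Pdgfra of fibroblasts, Eng of endothelium, and Lrp2 and Gatm of proximal tubule. The rest of these lists was too dim or absent. With vehicle the list sums ranged from 5879 to 9639, 1775 to 2279 and 1825 to 2473 in that order. With aldosterone they ranged from 5814 to 7382, 1327 to 2126 and 1363 to 2291. The part of these markers in the members' differences was not tested.

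The calls between replications depended on single arrays. Without the vehicle array of replication 1, or without the aldosterone array of replication 1, only Dnajc8 was called, 1 of 69 (1.45%). Without the vehicle array of replication 2, 9 were. With a fit that ignores intensity when it estimates the spread, limma called 0 of the members and 2 of all 7453 probe sets.

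**Figure D4:**
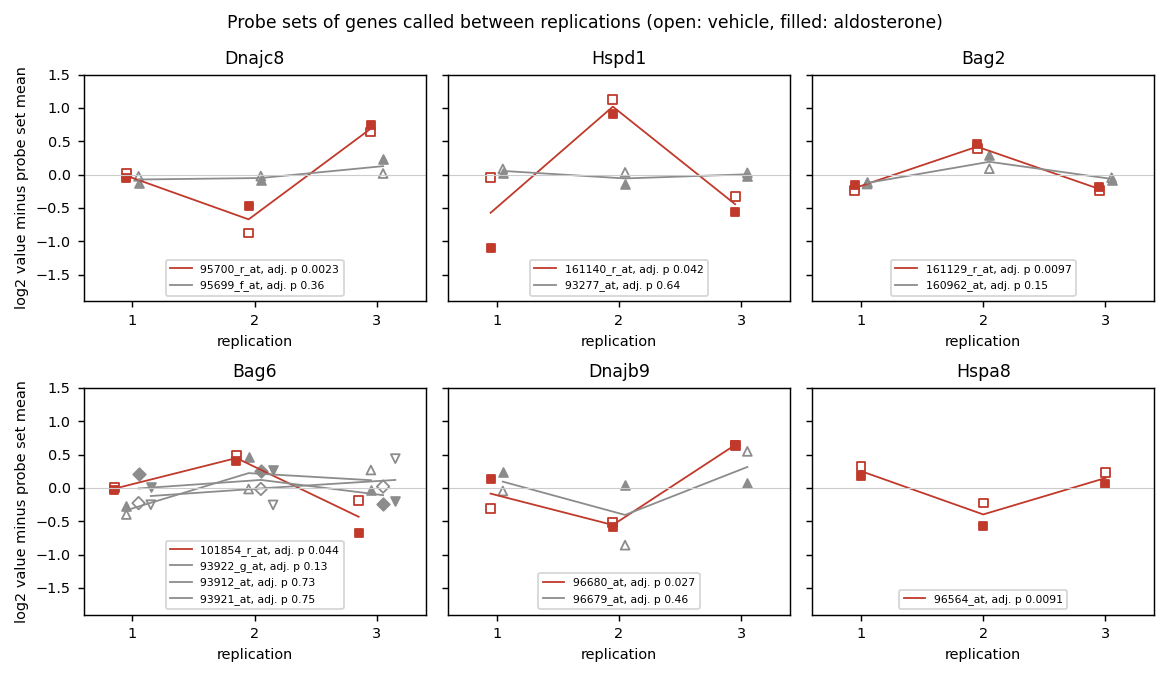
Log2 value minus the probe set's mean in each replication for every tested probe set of the 6 genes called between replications (open symbols vehicle, filled symbols aldosterone, lines the mean of both), with called probe sets in red and the others in grey. The red lines of Dnajc8 and Hspd1 span 1.36 and 1.59 while the grey lines of the same genes span 0.20 and 0.11.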

How the data were processed

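The authors deposited 1 linear intensity for each probe set on each of 6 single-colour arrays. How these were summarised and scaled is not given in the sources analysed. The 2% trimmed mean was 86.5 on the aldosterone array of replication 3 and 2488 to 2493 on the others, so each array was scaled to 2090, and a pseudocount of 53.0 (10th percentile of all scaled values) was added before taking log2. Probe sets with a mean of at least 8.87 (40th percentile) were tested, 7453 of 12422. Treatment was tested two-sided by lmFit and eBayes with trend (limma 3.58.1, R 4.3.3), with Benjamini-Hochberg adjustment over all tested probe sets and a threshold of 0.05, and replications by an F test with treatment as a term. The scripts were tested on simulated data, which for the treatment test held no differences between replications. The numbers paired the arrays, as the deviations of same-numbered arrays correlated at 0.377, 0.387 and 0.471. Symbols came from the array annotation (10833 probe sets with 1 symbol, 396 with several, 1193 with none), compared through Entrez identifiers with RefSeq GRCm38.p6, which changed 0.

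The members and lists were chosen with earlier results of these data known. Named members were the 10 with the smallest p for treatment and the 10 for replication, the brightest probe set of each role, genes whose probe sets differed in sign and by at least 0.5, and others by role. The number of arrays limits the precision. Whether probe sets with the suffixes _f_at and _s_at detect only the named gene was not tested. Among them were those with 0.30 and 0.11 for Cct3, 0.34 for Dnajc15, -0.16 for Dnajc2 and -0.29 for Bag3. The tested probe set of Hspbp1 and the brighter of Dnajc8 also carry _f_at.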

Additional observations from a re-analysis of the deposited data

How the results depend on the processing

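Other pseudocounts, filters, normalizations, the replicate block and leaving out arrays were tried, 15 alternatives for treatment, and 0 members were called for aldosterone under each. The 10 members with the smallest p kept the direction of their difference wherever they were tested. They were picked on these same arrays, so this cannot decide whether the directions would hold in other cultures. With the replicate block the adjusted p was 0.998 or above and 1 member had an unadjusted p under 0.05, as did 1 without the intensity trend. The count called between replications was 6, and became 10 (14.5%, against 11.0% of all) with arrays scaled to a common median and 0 without the intensity trend. Leaving out single arrays gave 1 to 9. The causes were not tested. The count lower in all replications, added after the values were seen, was 15 and became 10 of 69 with a common median, 10 of 53 (18.9%, against 10.6% of all) with the filter at the 60th percentile, and 22 of 69 (31.9%, against 23.4%) without replicate 3, where 2 replications had to share a direction. The split by sign of 35 higher and 34 lower became 41 and 28 with a common median, and 23 and 46 without the vehicle array of replication 2. Values of dim probe sets on the aldosterone array of replication 3 come in steps of 2.42.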
